A study of Homo sapiens with 12 samples.

Results

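5637_HOTAIR 4, a clone of the urothelial carcinoma cell line 5637 with stable overexpression of the long non-coding RNA HOTAIR, was compared with 5637_LV, a 5637 clone that carries the vector without HOTAIR. The comparison took the 6 arrays titled for these clones, 3 for each, out of 12 in the study, and covered all 18132 genes for which the Affymetrix PrimeView array had at least 1 probe set with exactly 1 gene symbol. The HOTAIR clone had been transfected with pLZRS-HOTAIR and the control with the empty LZRS vector, and both were selected with puromycin and cultured in DMEM with fetal calf serum. Some source names number the cell line differently, but the cell line label reads 5637 for all 6 arrays. The other 6 arrays hold VM-CUB1_HOTAIR 20 and VM-CUB1_LV, the corresponding clones of a second urothelial carcinoma line, and were used here for the difference between the lines and for an alternative fit of all 12 arrays. Each group consisted of 3 RNA preparations of a single clone. The p-values therefore measure the spread between preparations, and HOTAIR cannot be told apart from any other difference between these clones. HOTAIR itself is not analysed here.

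HOTAIR is transcribed from the HOXC cluster and is known to bind the polycomb repressive complex PRC2 and the LSD1 demethylase complex. PRC2 places histone marks of silent genes, and LSD1 removes histone marks of active genes. The study asked which genes respond to it in urothelial carcinoma cells. Arrest of growth with secretion of cytokines is known from senescent cells. In that state CDK inhibitors hold the cell cycle, and NF-kappaB drives a secreted mixture of interleukins, chemokines and proteases. Interferon-stimulated genes, which limit the growth of viruses, answer to related signals from nucleic acid sensors.

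The files hold log2 values, and within a line the median of every probe set had been set to 0. They give differences between arrays and no level of expression. A gene's value was the mean of its probe sets, and in a gene that changed the arrays of the higher group lie above 0 and those of the lower group below it. Whether markers of the urothelium are present at all could not be read from such values. TBP, a subunit of the basal transcription machinery used as a reference, differed by -0.04 (SE 0.0501, adjusted p = 0.62, limma). Of 10 reference genes, 3 rose (30%) and 2 fell (20%), against 14.7% and 15.2% of all genes. Of 27 markers of fibroblasts, endothelium, blood, muscle and nerve, 4 rose (14.8%, near the 14.7% of all genes) and 0 fell. The 4 were THY1, CD14, PECAM1 and MBP. The mean of the marker list ranged from 0.019 to 0.048 in the 5637_HOTAIR 4 arrays and from -0.117 to 0.006 in the 5637_LV arrays. Which of its markers are absent from the cells cannot be told from centred values, and the part of other cells in the results was not tested. Over the 44988 probe sets with 1 symbol, arrays of 5637_HOTAIR 4 correlated with each other at 0.784 to 0.798. Those of 5637_LV correlated at 0.702 to 0.781, with replicate 1 of 5637_LV lowest. Between the groups the correlations were -0.822 to -0.790. Since the values are centred over these 6 arrays, the correlations within a group also reflect the difference between the clones.

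Genes were called with limma at a Benjamini-Hochberg adjusted p under 0.01 over all 18132 genes. With HOTAIR, 2665 genes rose (14.7% of those tested) and 2765 fell (15.2%), so that 29.9% of the genes were called. Rises were larger than falls. Among the called genes that changed at least 2-fold, 518 rose (2.86% of those tested) and 161 fell (0.888%), together 3.74%. With the arrays quantile normalized again these counts were 384 and 276, so that 58.2% of the 2-fold changes were rises against 76.3%. Among those that changed at least 4-fold 116 rose and 14 fell, and at 16-fold or more 10 rose and 0 fell. The median log2 fold change was 0.53 for genes that rose and -0.43 for genes that fell. Of all called genes, 3539 (65.2%) changed by less than 1.5-fold, which the small spread between preparations (median residual SD 0.0794 on the log2 scale) allowed to be called. The arrays of the groups did not overlap in 51.3% of all genes.

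**Figure D1:**
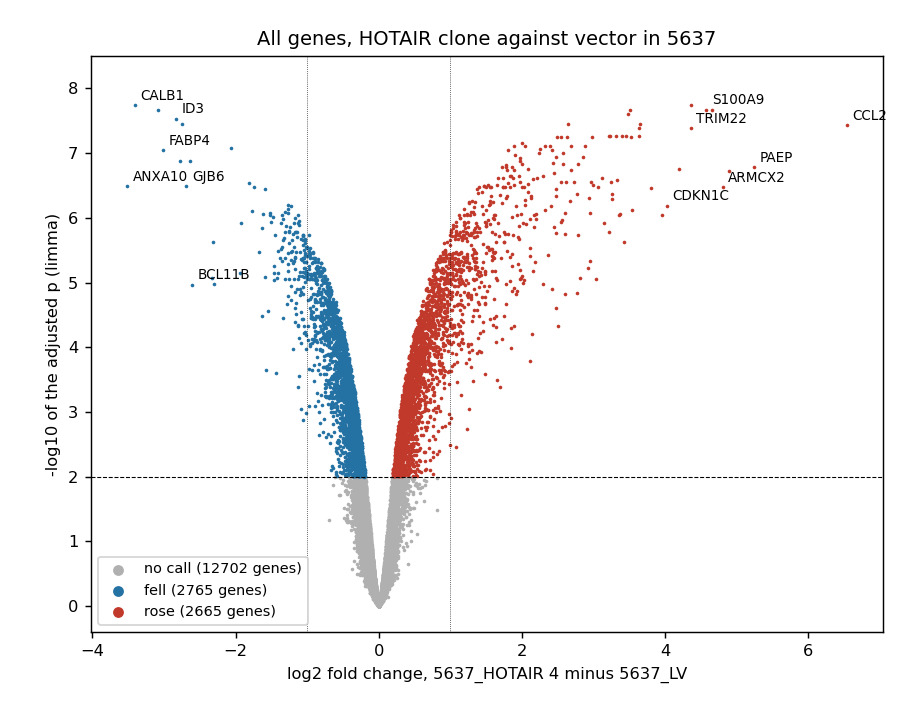
Log2 fold change of 5637_HOTAIR 4 against 5637_LV (x axis) and -log10 of the adjusted p from limma (y axis) for the 18132 genes, with 2665 that rose in red and 2765 that fell in blue. The dashed line is the threshold of 0.01 and the dotted lines mark a 2-fold change; the points extend farther to the right, to CCL2, than to the left, to ANXA10.

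Among the chemokines, the secreted proteins that attract leukocytes, few members rose but by large amounts. Of 27 measured chemokine ligands, 11 rose (40.7% against 14.7% of all genes), 9 of them at least 2-fold, and 0 fell, while the list's median was 0.02. CCL2, which attracts monocytes, had log2 values of 3.30, 3.07 and 3.30 in the 5637_HOTAIR 4 arrays and of -3.59, -3.07 and -3.28 in the 5637_LV arrays. Every array of the HOTAIR clone thus lay above every array of the control. CXCL8, or interleukin-8, which attracts neutrophils, stood at 1.34, 1.36 and 1.26 with HOTAIR and at -1.26, -1.39 and -1.46 without. Its relatives CXCL3 (8.38-fold), CXCL2 (5.25-fold), CXCL1 (4.25-fold) and CXCL5 (3.4-fold), which bind the same receptor family, rose as well. CCL20, the ligand of CCR6, was at 1.32, 1.31 and 1.24 against -1.24, -1.39 and -1.38, and rose 6.19-fold (SE of the log2 value 0.0582, adjusted p = 5.7e-08). CXCL10 and CXCL11, which attract T cells and are induced by interferon, were 4.05-fold and 2.22-fold higher, with a wider spread between preparations (SE 0.134 and 0.158). Their relative CXCL9 was not called at -0.14 (SE 0.117, adjusted p = 0.38), and neither was CCL5 at -0.08 (SE 0.087, adjusted p = 0.5).

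The promoters of these chemokine genes are shown because most of those that rose shared a short sequence. In RefSeq's promoter table (GRCh38.p14), 20 of the 27 chemokine genes had an entry. The letters GGG and, after any 2 bases, TTTCC, a form of the site bound by NF-kappaB, were searched on both strands in the 250 bases before the annotated start. They were found in 6 of the 9 promoters of genes that rose and in 0 of the 11 of genes without a call. Of all 27305 promoters in the table, 1.73% held them. CCL2 and CXCL8 were not among the genes with a match. The stretches below read 5′ to 3′ along the gene, with the match in capitals and 20 bases on each side.
CXCL3: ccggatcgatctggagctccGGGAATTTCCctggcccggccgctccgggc
CXCL2: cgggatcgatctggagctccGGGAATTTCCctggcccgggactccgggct
CXCL1: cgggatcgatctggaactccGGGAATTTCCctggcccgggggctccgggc
CXCL5: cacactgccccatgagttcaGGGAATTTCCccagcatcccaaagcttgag
CXCL6: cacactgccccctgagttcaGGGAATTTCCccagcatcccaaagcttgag
CCL20: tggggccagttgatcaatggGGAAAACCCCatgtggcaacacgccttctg
NFKBIA: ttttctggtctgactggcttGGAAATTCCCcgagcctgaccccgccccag
They lie at chr4:74038739-74038788 (minus strand) for CXCL3, chr4:74099244-74099293 (minus) for CXCL2, chr4:73869294-73869343 (plus) for CXCL1, chr4:73998739-73998788 (minus) for CXCL5, chr4:73836568-73836617 (plus) for CXCL6, chr2:227813743-227813792 (plus) for CCL20 and chr14:35404801-35404850 (minus) for NFKBIA. The first base of the match was at -79, -78 and -79 in CXCL3, CXCL2 and CXCL1, whose stretches are nearly the same, and at -91 and -90 in CXCL5 and CXCL6, which also resemble each other. These genes are neighbours and related copies on chromosome 4 and are not independent cases. A match describes the letters and does not show that the site is bound. NFKBIA, the gene of the inhibitor of NF-kappaB, is shown as a gene of the feedback loop, and it was 2.06-fold higher with HOTAIR. Among the 13 genes of NF-kappaB subunits and feedback that rose and had a promoter, 3 held a match (23.1%), against 2 of the 5 that fell. Among interleukins and colony-stimulating factors 1 of 13 that rose held it (7.69%) and 2 of 12 without a call (16.7%), and among the calprotectin and acute phase genes that rose 0 of 8 did.

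Among 34 interleukins and colony-stimulating factors, 17 rose (50%) and 1 fell, against 14.7% and 15.2% of all genes. IL36G, an epithelial member of the interleukin-1 family, had log2 values of 1.71, 1.60 and 1.71 with HOTAIR and of -1.60, -1.77 and -2.21 without, and CSF3, which stimulates granulocytes, had values of 1.28, 1.34 and 1.44 against -1.63, -1.49 and -1.38. The groups did not overlap in either gene, and the rises were 11.6-fold for IL36G (adjusted p = 7.5e-07) and 7.25-fold for CSF3 (adjusted p = 1.2e-07). Interleukin-1 itself rose less, IL1B 2.6-fold and IL1A 1.52-fold, and IL6 rose 1.68-fold. IL37, which dampens inflammation, rose 2.53-fold. The member that fell was IL18 (log2 fold change -0.64, SE 0.143, adjusted p = 0.0073), with 0.65 in replicate 1 of 5637_LV against 0.18 and 0.14 in the others. On the receptor side, IL1R2, a decoy that binds interleukin-1 without signalling, was 3.11-fold lower, and IL7R was 1.89-fold lower. IFNGR1, a chain of the interferon-gamma receptor, rose 1.87-fold and IL13RA1 2.06-fold. Of 41 cytokine receptors and JAK-STAT regulators, 17 rose (41.5%) and 8 fell (19.5%), and the feedback inhibitor SOCS1 rose 2.24-fold while its relative SOCS2 was 1.31-fold lower.

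More regulators of NF-kappaB rose than fell. Of 36 members, 15 rose (41.7%, against 14.7% of all genes) and 5 fell (13.9%, near the 15.2% of all genes). NFKBIZ, a nuclear cofactor that is needed for a part of the NF-kappaB targets, rose 3.66-fold, with values between 0.87 and 0.95 in the HOTAIR arrays and at or below -0.87 in the others. The receptors TLR2 and TLR4, which sense bacterial products, rose 2.59-fold and 2.04-fold, and the kinase gene IRAK2 downstream of them 2.39-fold. REL, which encodes a subunit of NF-kappaB, was 2-fold lower (adjusted p = 8.7e-06), and MAP3K14, the kinase of the alternative pathway, was 1.42-fold lower.

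Proteins of the epithelial defence were among the largest rises. Of 32 genes of calprotectin, acute phase, complement and antimicrobial proteins, 15 rose (46.9%), 11 of them at least 2-fold, and 1 fell. S100A7, or psoriasin, had log2 values of 2.20, 1.70 and 2.35 with HOTAIR and of -1.70, -1.88 and -2.01 without. PI3, or elafin, an inhibitor of elastase, had 1.85, 1.68 and 1.89 against -1.89, -1.68 and -1.88. They were 15.4-fold and 12.4-fold higher, and SAA1, an acute phase protein, was 9.58-fold higher. A list of the cornified envelope, the protein shell of squamous cells, was added after the leading genes were seen. Of its 33 genes, 6 rose (18.2%, near the 14.7% of all genes), 0 fell and 27 were not called. All 6 rose at least 2-fold, as 2.86% of all genes did, and the list's median was 0.04. SPRR2A was 7.38-fold, SPRR2F 6.43-fold, SPRR1B 3.82-fold and PPL, or periplakin, 2.83-fold higher. The SPRR2 genes are near-identical copies, and probe sets of a copy may take up transcripts of another.

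**Figure D2:**
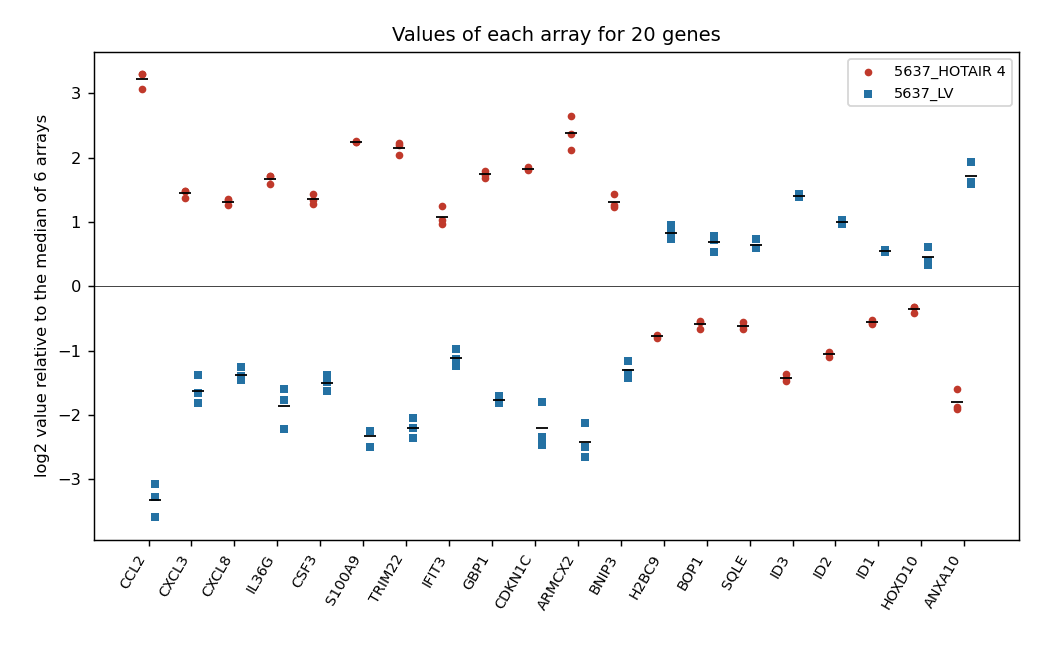
Log2 values, relative to the median of the 6 arrays (y axis), of 20 genes (x axis) in each array of 5637_HOTAIR 4 (red circles) and 5637_LV (blue squares), with horizontal bars at the group means. The genes were chosen among those called, so that the groups lie apart is part of the choice (51.3% of all genes did not overlap); CCL2 differed most, and HOXD10 least.

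Of the lists examined, the antiviral effectors had the highest share of genes that rose. Of 55 antiviral effectors, 39 rose (70.9%, against 14.7% of all genes) and 1 fell, with a list median of 0.71 against -0.04 over all genes. The mean of the list was 0.439, 0.334 and 0.434 in the 5637_HOTAIR 4 arrays and -0.388, -0.418 and -0.476 in the 5637_LV arrays, lowest among the HOTAIR arrays in replicate 2. IFIT3, which binds viral RNA together with its relatives, had log2 values of 1.03, 0.97 and 1.25 with HOTAIR and of -1.24, -0.97 and -1.13 without. MX1, a GTPase that blocks viruses, had 0.93, 0.87 and 1.04 against -0.87, -0.98 and -1.18. The groups did not overlap in these genes, and the rises were 4.58-fold and 3.87-fold. IFITM1, a membrane protein that hinders virus entry, rose 7.61-fold, ISG20, an exonuclease, 4.1-fold, and IFIT2 3.71-fold. The member that fell was SP100, a component of nuclear bodies (log2 fold change -0.21, adjusted p = 0.0068). Upstream of these genes, 13 of 29 genes of interferon signalling and RNA sensing rose (44.8%) and 1 fell. RIGI, a sensor of viral RNA, had log2 values of 0.84, 0.75 and 0.90 with HOTAIR and of -0.81, -0.82 and -0.83 without, and rose 3.14-fold. The transcription factor IRF7 rose 2.99-fold and IRF1 2.01-fold, whereas MAVS, the adaptor of RIGI, was 1.19-fold lower.

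The promoters of antiviral genes held the interferon-stimulated response element with and without a call. The letters GAAA and, after any 2 bases, GAAA again, searched on both strands in the 250 bases before the start, were found in 16 of 27 promoters of antiviral effectors that rose (59.3%) and in 6 of 11 of those without a call (54.5%). Of all promoters in the table, 3.07% held them. Among genes of mitosis that fell, 0 of 31 did. Stretches of 4 genes with large rises are shown, with the matches in capitals.
GBP1: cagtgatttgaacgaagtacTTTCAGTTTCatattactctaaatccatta
IFITM1: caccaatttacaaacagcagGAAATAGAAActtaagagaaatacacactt
IFIT3: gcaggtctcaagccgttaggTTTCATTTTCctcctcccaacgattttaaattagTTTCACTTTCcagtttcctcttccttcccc
ISG20: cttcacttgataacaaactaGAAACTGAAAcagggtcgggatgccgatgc
They lie in GRCh38.p14 at chr1:89065306-89065355 (minus strand) for GBP1, chr11:313980-314029 (plus) for IFITM1, chr10:89327821-89327904 (plus) for IFIT3 and chr15:88638927-88638976 (plus) for ISG20. TTTC runs are the same element read from the other strand, and IFIT3 held a pair of matches, at -156 and -122.

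Many targets of interferon-gamma and genes of antigen presentation rose. Of 22 guanylate-binding proteins and other interferon-gamma targets, 13 rose (59.1%, against 14.7% of all genes), 0 fell and 9 were not called. GBP1 had log2 values of 1.74, 1.69 and 1.80 with HOTAIR and of -1.71, -1.82 and -1.77 without. IDO1, which breaks down tryptophan, was 5.56-fold higher, ICAM1, an adhesion molecule for leukocytes, 4.78-fold, and CTSS, a protease of antigen processing, 4.51-fold. Of 22 genes of MHC class I and the immunoproteasome, 15 rose (68.2%), with a median of 0.54, 0 fell and 7 were not called. PSMB9, a catalytic subunit of the immunoproteasome, rose 2.9-fold, the peptide transporter gene TAP1 1.98-fold and the trimming peptidase gene ERAP2 2.17-fold. B2M, the light chain of MHC class I, rose 1.21-fold (adjusted p = 0.0072). Of 35 subunits of the constitutive proteasome, 5 rose (14.3%) and 9 fell (25.7%), against 14.7% and 15.2% of all genes. In that list PSMD10 rose 2.1-fold and PSMC1 was 1.46-fold lower.

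Genes of cell death and of the inflammasome rose in part. Of 36 death receptors and members of the BCL2 family, 16 rose (44.4%) and 2 fell, against 14.7% and 15.2% of all genes. TNFSF10, the death ligand TRAIL, had log2 values of 1.31, 0.97 and 1.39 with HOTAIR and of -0.97, -1.71 and -1.48 without, a 6.09-fold rise. FAS, a death receptor, rose 2.79-fold and BBC3, or PUMA, 2.07-fold, but so did genes that protect from death, BCL2A1 3.07-fold and CFLAR 2.03-fold, the latter with probe sets from -0.26 to 1.69. Of 22 inflammasome and pyroptosis genes, 8 rose (36.4%) and 2 fell. NLRP3, a sensor that assembles the inflammasome, rose 2.79-fold, and GSDMD, whose product forms the pore of pyroptosis, was 1.65-fold lower, at -0.72 on the log2 scale (adjusted p = 9.4e-05).

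A part of the CDK inhibitors rose, and a part of the genes of division fell by small steps. Over all genes, 14.7% rose and 15.2% fell. CDKN1C, which encodes the inhibitor p57, had log2 values of 1.81, 1.85 and 1.82 with HOTAIR and of -1.79, -2.47 and -2.34 without, a 16.3-fold rise (SE 0.153, adjusted p = 6.5e-07). CDKN1A, or p21, rose 2.25-fold and CDKN2B, or p15, 1.32-fold. Other genes that restrain growth rose too, among them TOB1 (2.35-fold) and BTG1 (2.01-fold), and of 36 such genes 12 rose (33.3%), 3 fell and 21 were not called. The 3 that fell were RBL1, GADD45B and EGR1. Of 28 regulators of G1 and S phase, 10 fell (35.7%), 4 rose (14.3%) and 14 were not called. CCND1, or cyclin D1, was among those that rose (1.98-fold), and MYC (1.36-fold lower), CCNE2 (1.42-fold lower) and CKS1B (1.44-fold lower) were among those that fell. Without replicate 3 of 5637_HOTAIR 4 the count that fell was 6. Of 50 genes of DNA replication, 13 fell (26%), 6 rose (12%) and 31 were not called, and ORC2, a subunit of the origin recognition complex, was 1.76-fold lower. Mitosis showed the fall more widely, with 34 of 66 genes (51.5%) lower and 3 higher. NUF2, of the kinetochore, had log2 values of -0.41, -0.45 and -0.36 with HOTAIR and of 0.67, 0.41 and 0.36 without, and was 1.85-fold lower. Of the 66 genes, 0 were called with a change of at least 2-fold, against 3.74% of all genes.

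Histone genes that are transcribed in S phase to package new DNA fell without exception among those called. Of 49 measured, 26 fell (53.1%, against 15.2% of all genes), 5 of them at least 2-fold, and 0 rose, with a median of -0.38. The mean of the list was -0.213, -0.243 and -0.233 in the 5637_HOTAIR 4 arrays and 0.237, 0.255 and 0.221 in the 5637_LV arrays. H2BC9, a gene of histone H2B, had log2 values of -0.77, -0.75 and -0.80 with HOTAIR and of 0.95, 0.73 and 0.83 without, a difference of 3.05-fold (adjusted p = 8.7e-07). H2AC20 was 2.85-fold, H2AC11 2.23-fold, H2BC4 2.16-fold and H3C7 2.12-fold lower. The genes of a histone are close copies of each other, so that probe sets may read several of them. With probe sets that share probes left out, 19 of these genes fell, where a gene left without any probe set counts as not called.

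The octamer ATTTGCAT, a sequence known from H2B promoters, was found on either strand within 250 bases before the start in 14 of 24 promoters of histone genes that fell (58.3%) and in 7 of 21 of those without a call (33.3%). Of all promoters, 1.66% held it. The 3 stretches shown belong to histone genes with large falls, with the octamer in capitals.
H2BC9: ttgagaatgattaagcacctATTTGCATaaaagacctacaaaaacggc
H2AC11: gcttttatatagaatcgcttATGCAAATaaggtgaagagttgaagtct
H2BC4: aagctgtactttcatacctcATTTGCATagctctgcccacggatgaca
They lie in GRCh38.p14 at chr6:26251545-26251592 (plus strand) for H2BC9, chr6:27132815-27132862 (plus) for H2AC11 and chr6:26124022-26124069 (minus) for H2BC4. The 14 matches are 10 distinct stretches, since 4 pairs of neighbours on opposite strands share an octamer that counts for both genes: H2AC11 with H2BC11, H2BC4 with H2AC6, H2AC20 with H2BC21 and H2BC8 with H2AC8. The CCAAT box stood in 22 of the 24 promoters that fell and in 18 of the 21 without a call, against 33% of all promoters.

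The machinery that builds ribosomes had the highest share of genes that fell among the lists examined. Of 58 genes of ribosome biogenesis, 43 fell (74.1%) and 2 rose, with a median of -0.36. Over all genes, 15.2% fell and 14.7% rose. The groups did not overlap in 55 of the 58, against 51.3% of all genes. BOP1, which processes ribosomal RNA of the large subunit, had log2 values of -0.56, -0.66 and -0.54 with HOTAIR and of 0.72, 0.79 and 0.54 without, a change of -1.27 (SE 0.0734, adjusted p = 5.1e-06). RRS1 was 1.88-fold and RRP15 1.79-fold lower. The exceptions were UTP14A, 1.77-fold higher, and FBL, or fibrillarin, 1.32-fold higher. Cytosolic ribosomal proteins comprised 21 of 66 that fell (31.8%) and 1 that rose, and RPL27A, 2.3-fold lower, changed most. Of 74 mitochondrial ribosomal proteins, 25 fell (33.8%) and 8 rose, and MRPL24 was 2.18-fold lower. Leaving out any array of 5637_HOTAIR 4 lowered the 25 to 16, and leaving out replicate 2 or 3 of that clone lowered the 8 to 5. Of 71 subunits of the respiratory chain, 18 fell (25.4%) and 8 rose (11.3%). Of 80 splicing factors, 33 fell (41.2%) and 5 rose, HNRNPA3 with the largest fall (1.95-fold lower).

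**Figure D3:**
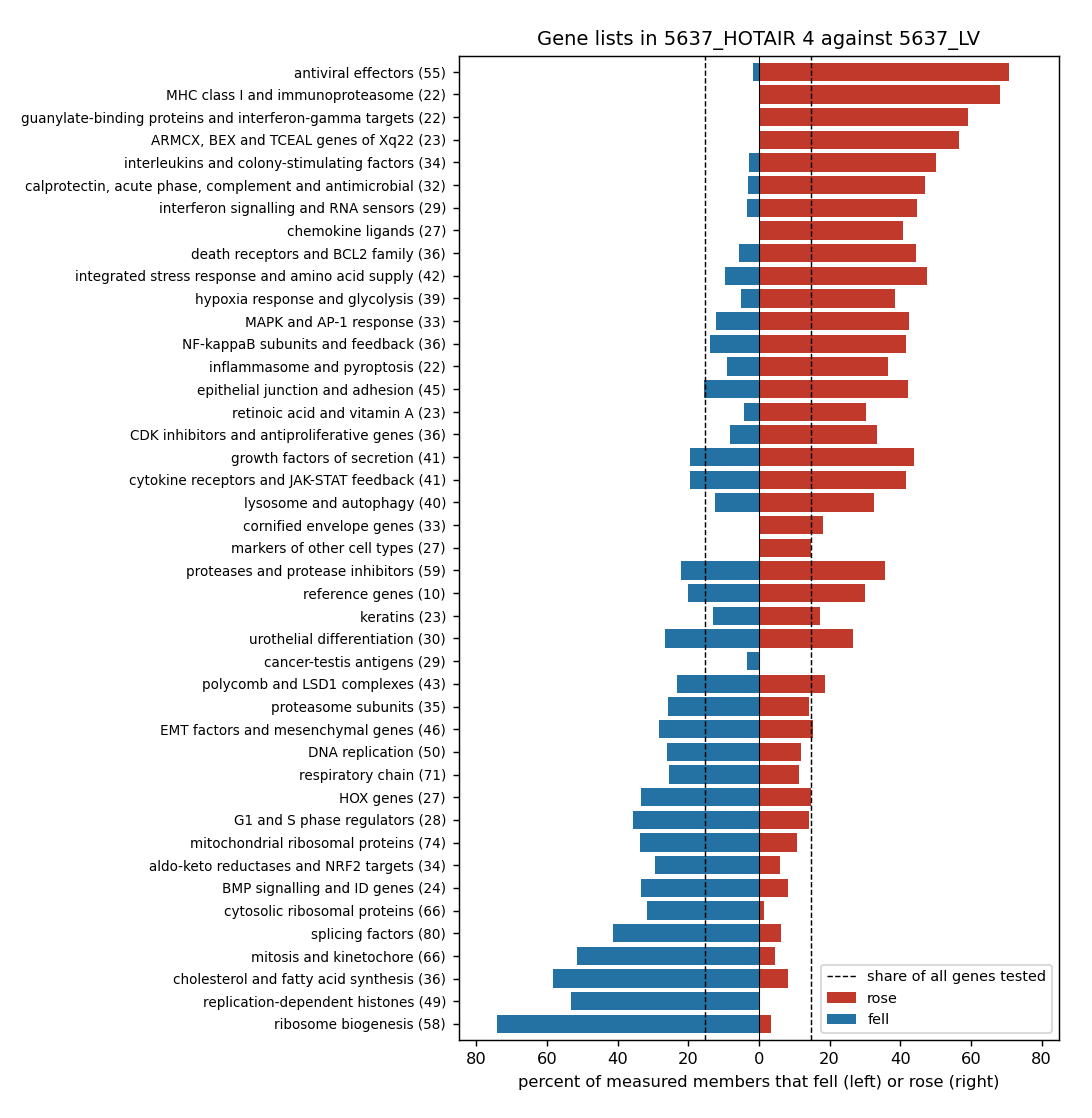
Percent of the measured members of each gene list that rose (red, to the right) or fell (blue, to the left) in 5637_HOTAIR 4, with the number of measured members in brackets. Dashed lines mark the shares over all genes tested (14.7% rose, 15.2% fell); antiviral effectors stand at the top with 70.9% that rose and ribosome biogenesis at the bottom with 74.1% that fell.

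Genes of cholesterol and fatty acid synthesis were lower in larger number than higher. Of 36 genes, 21 fell (58.3%, against 15.2% of all genes) and 3 rose, with a median of -0.32. SQLE, which adds oxygen to squalene, had log2 values of -0.56, -0.66 and -0.61 with HOTAIR and of 0.73, 0.60 and 0.60 without. HSD17B7, a later enzyme of the pathway, had -0.66, -0.64 and -0.51 against 0.73, 0.74 and 0.51. They were 2.39-fold and 2.4-fold lower. INSIG1, the sterol-regulated brake on the pathway, was 1.92-fold, SCD, which makes monounsaturated fatty acids, 1.77-fold and ACLY, which supplies acetyl-CoA, 1.74-fold lower. FADS3, a gene of the desaturase family, rose 2.06-fold. The sterol regulatory element was searched as ATCAC, any base and CCAC on both strands. It was found in 0 of the 18 promoters of genes that fell and in 1 of 12 without a call (8.33%). Only 0.125% of all promoters held it, so the count of 0 in so few promoters says little about these genes. The NRF2 pathway of oxidative defence and the aldo-keto reductases showed falls in 10 of 34 genes (29.4%) and rises in 2. GPX2, a glutathione peroxidase, was 2.7-fold, SLC7A11, the cystine importer, 2.34-fold and NQO1 1.55-fold lower, and CYP1B1, which is induced through AHR, was 2.74-fold lower. AHR itself rose 2.68-fold.

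Of 42 genes of the integrated stress response and amino acid supply, 20 rose (47.6%) and 4 fell, against 14.7% and 15.2% of all genes. GDF15, a secreted stress cytokine, had log2 values of 1.05, 0.71 and 1.05 with HOTAIR and of -1.08, -1.16 and -0.70 without, and its 5 probe sets ranged from -0.02 to 3.77. ASNS, or asparagine synthetase, rose 1.74-fold, and ASS1, an enzyme of arginine synthesis, was among the 25 largest rises at 10.5-fold. Of 39 genes of the hypoxia response and glycolysis, 15 rose (38.5%) and 2 fell. BNIP3, which promotes removal of mitochondria, had log2 values of 1.26, 1.44 and 1.24 against -1.42, -1.16 and -1.34, a 6.13-fold rise. HIF1A, the hypoxia-regulated transcription factor, rose 1.9-fold, VEGFA 2.05-fold (probe sets from -0.01 to 1.81) and PLOD2 2.5-fold. Of 40 lysosome and autophagy genes, 13 rose (32.5%) and 5 fell, with LAMP3 9.59-fold and CD63 2.48-fold higher.

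Feedback genes of the MAPK pathway, which are transcribed when ERK is active, were among those that rose. The phosphatase gene DUSP6 had log2 values of 0.60, 0.64 and 0.64 with HOTAIR and of -0.75, -0.64 and -0.71 without. DUSP5 rose 3.62-fold, the ETS factor gene ETV5 3.22-fold, DUSP6 2.51-fold and the receptor signalling inhibitor gene SPRY1 2.37-fold. In contrast, EGR1 was 1.61-fold and JUNB 1.24-fold lower. In the whole list 14 of 33 rose (42.4%) and 4 fell, against 14.7% and 15.2% of all genes. Among 41 secreted growth factors, 18 rose (43.9%) and 8 fell (19.5%). HBEGF, a ligand of the EGF receptor, rose 3.47-fold and INHBB, a subunit of activin, 5.96-fold, with log2 values of 1.29, 1.23 and 1.33 against -1.23, -1.24 and -1.42. FGFBP1 was 2.32-fold and NRG1, a ligand of ERBB3, 1.75-fold lower. Among 23 genes of retinoic acid and vitamin A, 7 rose (30.4%), with RBP4 (3.05-fold) and CRABP2 (2.86-fold) highest, and 1 fell, CYP26A1, which degrades retinoic acid (1.49-fold lower).

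Genes of BMP signalling were listed after the leading genes had been seen. The ID genes encode inhibitors of helix-loop-helix factors and are known direct targets of BMP. ID3 had log2 values of -1.42, -1.36 and -1.47 with HOTAIR and of 1.39, 1.44 and 1.40 without. ID2 had -1.02, -1.03 and -1.10 against 1.01, 0.97 and 1.04, and ID1 had -0.59, -0.57 and -0.52 against 0.57, 0.56 and 0.54. The differences were far larger than the spread between preparations, at -2.83 (SE 0.051), -2.06 (SE 0.0505) and -1.12 (SE 0.0473), and ID4 changed by -0.59. The ligand gene BMP2 was 2.51-fold lower and the inhibitory SMAD6, which BMP also induces, 2.45-fold lower. NOG, which encodes the BMP antagonist noggin, rose 2.48-fold. In all 8 of 24 fell (33.3%, against 15.2% of all genes) and 2 rose (8.33%, against 14.7%), and the other 14 were not called.

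Among epithelial and mesenchymal genes the junctions rose more often than they fell. Of 45 genes of epithelial junctions and adhesion, 19 rose (42.2%) and 7 fell, against 14.7% and 15.2% of all genes. CDH1, or E-cadherin, had log2 values of 0.45, 0.39 and 0.38 with HOTAIR and of -0.66, -0.73 and -0.50 without, a 2.05-fold rise (SE 0.067, adjusted p = 8.9e-06). The tight junction genes CLDN4 and CLDN7 each rose 2.01-fold. Plectin (PLEC), which links keratins to hemidesmosomes, was 2.16-fold lower, and its partner ITGB4 was 1.46-fold lower. At least 2-fold, 3 junction genes rose and 2 fell, and the largest change of that list was a fall, at -2.69 on the log2 scale. Of 46 EMT factors and mesenchymal genes, 13 fell (28.3%) and 7 rose. VIM, or vimentin, was 1.26-fold lower, COL6A1 2.12-fold, CDH11 1.81-fold and TCF4 1.81-fold lower, while S100A4 rose 2.52-fold. Changes in this list ran from -1.48 to 2.49 on the log2 scale, so that the largest was a rise. At least 2-fold, 2 of its members rose and 3 fell. Of 23 keratins, 4 rose (17.4%) and 3 fell (13%), shares near those of all genes, and without replicate 2 or 3 of 5637_LV 2 rose. Urothelial differentiation genes were divided, with 8 of 30 higher and 8 lower (26.7% each). TMPRSS2 rose 4.35-fold and VGLL1 2.55-fold. PPARG, a nuclear receptor of urothelial differentiation, was 1.73-fold lower, and FABP4, a known target of PPARG, had log2 values of -1.41, -1.46 and -1.64 with HOTAIR and of 1.41, 1.54 and 1.58 without. Of 59 proteases and inhibitors, 21 rose (35.6%) and 13 fell (22%). CST6 (6.26-fold), SERPINA1 (5.83-fold) and KLK10 (4.3-fold) rose, and MMP2 was 2.03-fold lower. MMP7 had a mean rise of 11.1-fold, but its 4 probe sets ranged from -0.15 to 5.54.

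HOX genes, which give cells their position along the body axis, were compared because HOTAIR was first described as a repressor of the HOXD cluster. Of 27 measured, 4 rose (14.8%) and 9 fell (33.3%). HOXB8 had log2 values of 0.79, 0.62 and 0.75 with HOTAIR and of -0.62, -0.71 and -1.16 without, and HOXB2 had 0.77, 0.69 and 0.68 against -0.88, -0.81 and -0.68. They rose 2.93-fold and 2.83-fold, and HOXB9 rose 1.38-fold, while the genes between them on the cluster, HOXB3 to HOXB7, were not called (log2 fold changes of -0.11 to 0.19). In the HOXD cluster HOXD10 had -0.32, -0.41 and -0.32 against 0.34, 0.40 and 0.62, and was 1.74-fold lower. HOXD9 was 1.82-fold, HOXD8 1.59-fold, HOXD13 1.48-fold and HOXD4 1.32-fold lower, whereas HOXD1 rose 1.21-fold. In the HOXC cluster HOXC4, HOXC6, HOXC8 and HOXC9 fell by 0.71, 0.35, 0.37 and 0.40 on the log2 scale. The methods' t-test called 1 of these 9 falls. Of the partners of HOTAIR, EZH2 and KDM1A (LSD1) were each 1.22-fold lower, and SUZ12 was not called at -0.06 (SE 0.0744, adjusted p = 0.56). Of 43 polycomb and LSD1 complex genes, 8 rose and 10 fell, against 14.7% and 15.2% of all genes. Without replicate 2 of 5637_HOTAIR 4 the counts were 5 and 6, and without replicate 3 of it 5 rose.

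Called genes were not spread evenly over the genome. The build of the array's annotation is not given in the sources used here, so segments of 5 Mb in RefSeq's GRCh38.p14 order are named by their first and last gene. Over all genes 14.7% rose and 15.2% fell. Of 674 genes of the X, 201 rose (29.8%) and 20 fell (2.97%). Chromosome 13 had 14 of 305 that rose (4.59%) and 110 that fell (36.1%), and chromosome 8 had 59 of 628 (9.39%) and 217 (34.6%). On chromosome 2, 115 of 1134 rose (10.1%) and 316 fell (27.9%). On chromosome 11 the balance was the other way, with 237 of 1200 that rose (19.8%) and 84 that fell (7%). Of 513 segments with at least 10 genes, the median log2 fold change lay between -0.22 and 0.19 for all but the most extreme segments at either end, and 15 segments had a median of -0.3 or lower and 15 of 0.3 or higher. These limits were chosen after the values were seen.

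The segment from CHRAC1 to ZNF252P at the end of chromosome 8 held 94 genes, of which 54 fell and 0 rose, with a median of -0.45. The mean over its genes was -0.24, -0.24 and -0.22 in the 5637_HOTAIR 4 arrays and 0.22, 0.31 and 0.22 in the 5637_LV arrays. BOP1, CYC1, GSDMD, PLEC and RPL8, named above or among the largest falls of their lists, lie in it. Other named genes also lie in segments with low medians. SQLE ends a segment of chromosome 8 that begins with COL14A1, in which 13 of 29 genes fell and 2 rose (median -0.30). FLRT2 begins a segment of chromosome 14 up to TDP1, in which 7 of 11 fell and 0 rose (median -0.35). From LINC00598 to GPALPP1 on chromosome 13, 19 of 26 genes fell and 0 rose (median -0.62). From CLHC1 to FANCL on chromosome 2, 7 of 11 fell and 0 rose (median -0.72). The HOXD genes lie in a segment from ATF2 to CWC22 in which 18 of 30 fell and 1, HOXD1, rose. Of the 9 HOX genes that fell, 4 lie outside such segments. On the X, the segment from PCDH19 to IL1RAPL2 had 30 of 55 genes higher and 0 lower, and its neighbour from TEX13A to ACSL4 had 16 of 27 higher and 1 lower. From IL13RA2 to NKAP, 15 of 27 rose and 1 fell (median 0.57). Chromosome 14 held both kinds, with 12 of 18 higher and 0 lower from G2E3 to SRP54 and 28 of 51 lower and 3 higher from DEGS2 to CLBA1. In all, 791 genes lay in these segments and 472 of them were called. The segments were chosen by these same changes, so a high share of calls in them is part of the choice. Outside these segments 28.6% of the genes were called, against 29.9% of all genes. Segments short of the limits count as outside. From MYO3B to CHN1 on chromosome 2, 15 of 28 fell and 2 rose (median -0.296). From PCNX4 to RAB15 on chromosome 14, 17 of 33 rose and 1 fell (median 0.295). From LINC01002 to KDM4B on chromosome 19, 72 of 158 fell and 4 rose (median -0.227). Whether the number of gene copies differs between the clones was not measured.

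**Figure D4:**
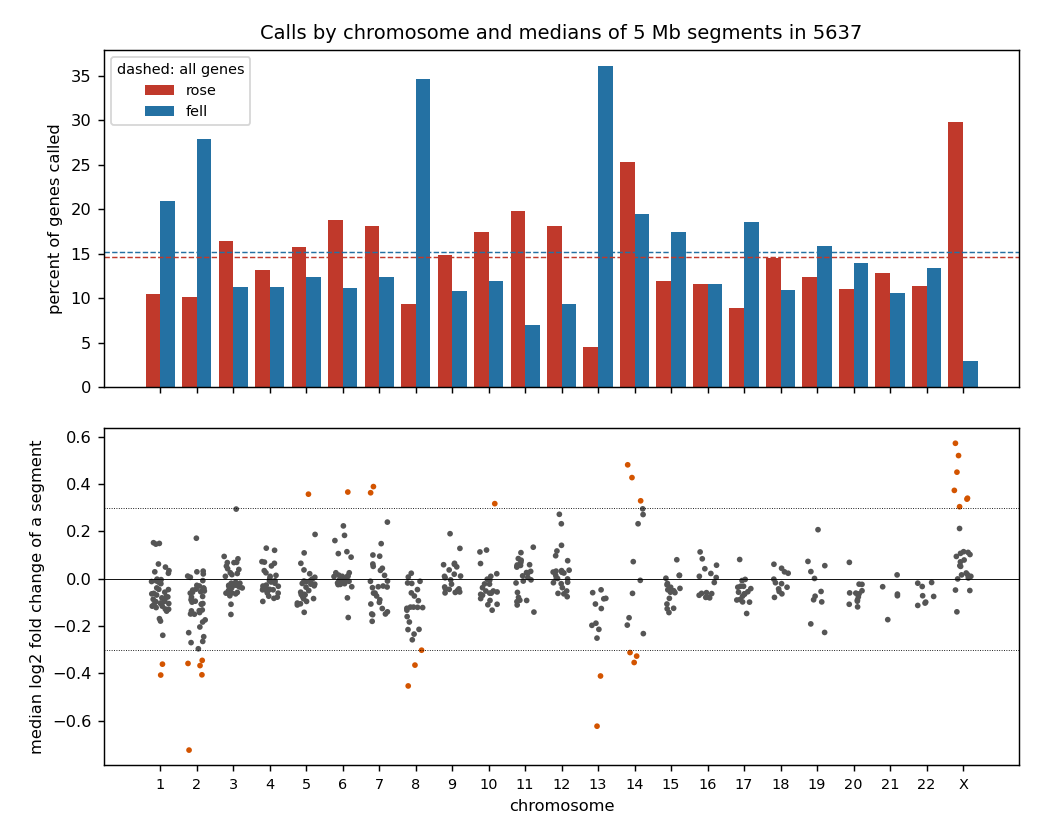
Top, percent of the genes of each chromosome that rose (red) or fell (blue) in 5637_HOTAIR 4, with dashed lines at the shares of all genes. Bottom, median log2 fold change of each 5 Mb segment with at least 10 genes (points, spread sideways for sight), orange where it is at least 0.3 from 0; chromosomes 2, 8 and 13 hold segments with low medians, the X segments with high medians and chromosome 14 both.

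The ARMCX, BEX and TCEAL genes, related copies that lie side by side in the PCDH19 to IL1RAPL2 segment, included some of the largest rises. Of 23, 13 rose (56.5%, against 14.7% of all genes) and 0 fell. ARMCX2 had log2 values of 2.65, 2.12 and 2.37 with HOTAIR and of -2.12, -2.49 and -2.65 without, and ARMCX1 had 1.77, 1.65 and 1.51 against -1.61, -1.56 and -1.57. The rises were 27.9-fold and 9.33-fold, and ARMCX3, whose product sits on mitochondria, rose 2.95-fold. BEX2 rose 3.66-fold and TCEAL1 2.37-fold. With probe sets that share probes left out, the count of rises was 5. A member left without any probe set counts there as not called. Of 29 cancer-testis antigens, many of which also lie on the X, 0 rose and 1 fell.

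Further leading genes belonged to no list. Among the 25 largest rises, TMEM40, a membrane protein gene of unsettled function, had log2 values of 2.18, 2.14 and 2.17 with HOTAIR and of -2.31, -2.15 and -2.14 without, a 20.6-fold difference. COXFA4L3, a mitochondrial protein gene related to a respiratory chain subunit, was 14-fold higher, STC1, a secreted glycoprotein gene, 12.4-fold, LAPTM5, of lysosomes in blood cells, 11.4-fold, TSPAN1 11-fold, CHST2, a sulfotransferase gene, 10.2-fold and the homeobox gene IRX3 10-fold. Among the 25 largest falls, OTULINL had log2 values of -1.41, -1.36 and -1.45 against 1.36, 1.29 and 1.39, a 6.75-fold difference. SCG5, a secretory chaperone gene, was 6.87-fold, MFAP5, of elastic microfibrils, 6.24-fold, and the transcription factor gene BCL11B 6.1-fold lower. MXRA5 (5.01-fold), NSG1 (4.95-fold), MPPED2 (4.94-fold), the scaffold gene SHANK3 (3.78-fold), FLRT2 (3.52-fold), the forkhead factor gene FOXF2 (3.36-fold), the WNT antagonist gene SFRP1 (3.02-fold) and LOXL4, of the collagen cross-linking family (3-fold), were lower too. Probe sets of some of these genes differed, from -3.38 to -0.11 for SFRP1 and from -3.36 to -0.26 for MPPED2.

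The 10 largest rises and the 10 largest falls were set beside VM-CUB1, where VM-CUB1_HOTAIR 20 was compared with VM-CUB1_LV. An interaction term in limma, fitted to all 12 arrays, compared the difference between the clones in the lines, and it was called in 42% of all genes. It passed the threshold for 19 of the 20. CCL2, S100A9, TRIM22, MFAP5 and FPR2 differed from the vector by -0.04 to 0.17 in VM-CUB1, without a call. LY75, a receptor of dendritic cells for endocytosis, rose by 4.90 in 5637 and changed by -3.27 in VM-CUB1, and ANXA10 changed by -3.52 and 2.04, FABP4 by -3.02 and 1.93 and ID3 by -2.83 and 0.57. TMEM40 rose in both lines, by 4.36 and 2.42, and CDKN1C by 4.03 and 0.81. GJB6, which encodes connexin 30, fell in both, by 2.69 and 3.19, and the difference of 0.51 did not pass the threshold (SE 0.149, adjusted p = 0.012). With the shared-probe sets dropped it was 0.91 and passed (adjusted p = 1.5e-04), so that all 20 genes did.

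**Figure D5:**
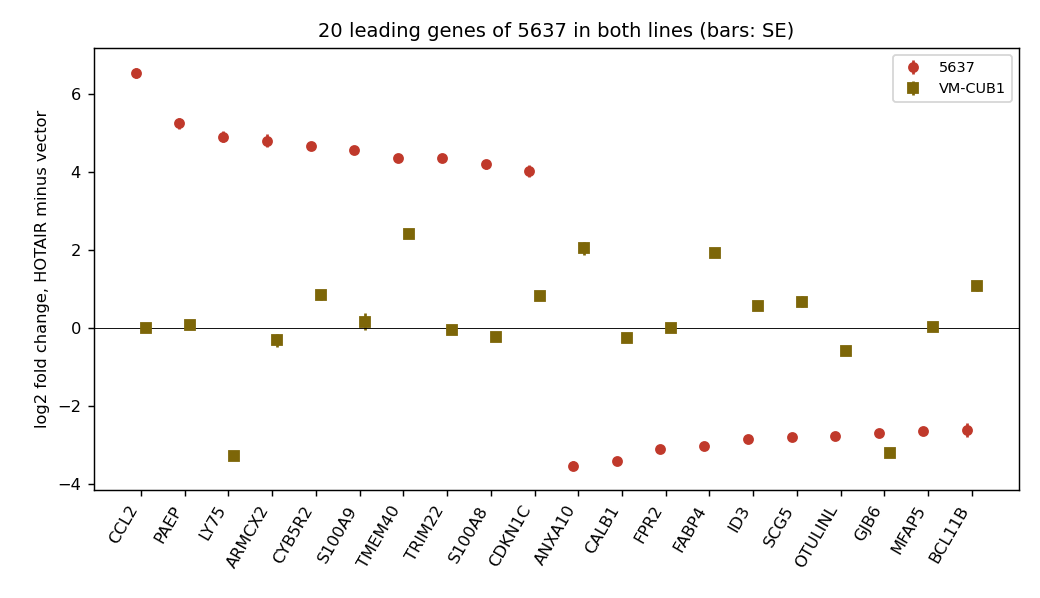
Log2 fold change of HOTAIR against vector (y axis) in 5637 (red circles) and VM-CUB1 (brown squares) for the 10 largest rises and the 10 largest falls of 5637 (x axis), with bars of 1 SE. LY75, ANXA10, FABP4, ID3, SCG5 and BCL11B were called in both lines on opposite sides of 0. CYB5R2, TMEM40, CDKN1C, OTULINL and GJB6 were called in both on the same side, and the other genes were not called in VM-CUB1.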

How the data were processed

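The authors hybridised RNA to Affymetrix PrimeView arrays and processed them in GeneSpring GX (methods) with RMA (submitters' processing notes) and a baseline transformation to the median. They deposited log2 values of 49395 probe sets, with each probe set's median over a line's 6 arrays at 0 (at most 5.0e-07 away), so that no level and no signal over background is known. Of the probe sets, 102 were controls, 44988 had 1 symbol in the platform annotation, 1832 several and 2473 none. Only those with 1 symbol were used, and the mean over a gene's probe sets gave 18132 genes.

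5637_HOTAIR 4 was compared with 5637_LV in limma 3.58.1 (R 4.3.3; lmFit, eBayes, two-sided, Benjamini-Hochberg over all genes, threshold 0.01). The test was tested on simulated data. Fold changes are powers of 2 of RMA differences. The number of arrays, 3 per group, limits the precision. Members and lists were chosen with earlier results of these data known. Named were the 25 largest rises and falls among called genes without overlap, up to 6 called members per list and direction, and a fixed set of anchor genes. CCL5, CXCL5, CXCL6, CXCL9, CXCL10, CXCL11, HOXB3 to HOXB7, HOXC8, HOXC9, ID4, H2AC6, H2AC8, H2BC8, H2BC11 and H2BC21 lie outside that rule and were named after their values were seen. The lists of BMP signalling and of the cornified envelope were added after values were seen, as were the limits for segments. Promoters were taken from RefSeq (GRCh38.p14), in which 14425 tested genes had an entry. Alternatives were the methods' t-test, a fit of all 12 arrays, a replicate block, other scalings, probe set choices and leaving out each array. A filter on low signal could not be applied without levels. Python 3.11.15 with pandas 2.3.3, matplotlib 3.10.9 and numpy 2.4.6 made the remaining tables and the plots.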

Additional observations from a re-analysis of the deposited data

Results flagged for a closer look

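The difference between HOTAIR clone and vector clone was compared between 5637 and VM-CUB1 by the interaction test of limma over 12 arrays. Each group is a single clone, so an effect of HOTAIR cannot be told apart from other differences between the clones. The test passed the threshold in 19 of the 20 leading genes of 5637, against 42% of all genes. These genes were taken as the largest changes of 5637, so a smaller change in the other line is built into the choice. The difference, 5637 minus VM-CUB1 on the log2 scale, was 6.52 for CCL2, 5.16 for PAEP, 8.17 for LY75, 5.11 for ARMCX2 and 3.81 for CYB5R2. It was 4.41 for S100A9, 1.94 for TMEM40, 4.39 for TRIM22, 4.41 for S100A8 and 3.21 for CDKN1C. Among the genes that fell in 5637 it was -5.55 for ANXA10, -3.14 for CALB1, -3.10 for FPR2, -4.95 for FABP4 and -3.40 for ID3. It was -3.46 for SCG5, -2.18 for OTULINL, -2.68 for MFAP5 and -3.68 for BCL11B. The adjusted p was at most 7.7e-08 in each.

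Probe sets outside the gene table also differed between the clones of 5637. Of 2473 probe sets without a gene symbol, 513 were called (20.7%), 247 higher and 266 lower, and of 1832 with several symbols 400 were called (21.8%), 178 higher and 222 lower. Among the 44988 probe sets with 1 symbol the share was 24.6%.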

How the results depend on the processing

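Without 1 array, 4209 to 5089 genes were called, against 5430 with all. The methods' t-test called 3655 genes (1857 that rose and 1798 that fell), the fit of all 12 arrays 5754, and an adjusted p under 0.05 gave 3457 that rose and 3941 that fell. With the arrays quantile normalized again, which forces the centred values of each array to the same distribution, 384 genes rose and 276 fell at least 2-fold, so that 58.2% of them rose against 76.3%. The replicate block called 4728 genes. Samples of the same number did not deviate together (r = 0.083, -0.013 and -0.030 for replicates 1 to 3), so the numbers do not pair the samples.

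With the t-test, counts of members moved to 15 histone genes, 1 HOX gene and 13 cholesterol genes that fell, and to 2 keratins, 5 urothelial genes, 10 growth factors, 9 MAPK genes and 4 retinoic acid genes that rose. At an adjusted p under 0.05, 32 cytosolic ribosomal proteins and 16 polycomb and LSD1 genes fell. Without 1 array the counts that fell ranged from 6 to 10 for G1 and S phase regulators, 16 to 22 for mitochondrial ribosomal proteins, 6 to 10 for polycomb and LSD1 genes, and the keratins that rose from 2 to 3. Without probe sets that share probes, 16701 of the 18132 genes remained, and a member left without any probe set counts as not called. In that setting 2 keratins and 5 ARMCX, BEX and TCEAL genes rose. The change of ACTA2 turned from 0.68 to -0.06, and the difference of GJB6 between the lines passed the threshold at 0.91. Outside the 5 Mb segments with extreme medians, an alternative chosen after seeing the data, 4 HOX genes fell and 0 ARMCX, BEX and TCEAL genes rose, since all 23 lie in such a segment. With segments of 10 Mb, 10 lay at -0.3 or lower and 5 at 0.3 or higher. Of 526 genes followed through these settings (the named genes and members of the lists), 82 lost their call with the t-test and 20 to 46 without 1 array. The causes were not tested. The filter on low signal was not run, since the values hold no levels, and the low number of arrays and the missing signal over background limit how far a small change in a dim gene can be read.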
